A study of Mus musculus with 6 samples.

Results

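The apolipoprotein L genes of the mouse were followed through the liver RNA of aged WT and *Sirt7* KO mice. The 5 genes described are *Apol9a*, *Apol9b*, *Apol7a*, *Apol6* and *Apol8*, taken by their symbols out of 54115 genes with a transcript in the data. They were selected on their difference in library-size normalized reads between the genotypes of these same livers, so that difference is given below as a description that no test supports. Of the 5 genes, 3 (*Apol9a*, *Apol9b* and *Apol7a*) passed the filter on low counts, as did 12524 of all genes. *Apol9a* and *Apol9b* are near copies of each other, and their summed reads are given as well.

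Apolipoprotein L proteins have amphipathic helices and associate with phospholipids and membranes. The best known human member, APOL1, travels in blood on high-density lipoprotein and kills trypanosomes. In the mouse the family has expanded into a cluster of duplicated genes, several of which respond to interferons. Interferon-induced genes are switched on through a promoter element, the interferon-stimulated response element (ISRE), which is bound by a complex that holds STAT2 and IRF9.

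The data are RNA-seq of whole liver from 3 WT and 3 *Sirt7* KO male mice, all 24 months of age with livers taken after 16 h without food. The KO mice lack the NAD-dependent deacetylase SIRT7 in the whole body, are on a C57BL/6J background and were kept on normal chow, as were the WT mice. Full-length cDNA was amplified from a small amount of total RNA and read from one end without strand information, and 9994860 to 13424776 reads per mouse were assigned to transcripts. *Sirt7* itself stood at 55.2, 45.5 and 47.3 CPM (counts per 1000000 reads, with library sizes scaled by the trimmed mean of M values) across WT livers, against 28.6, 41.8 and 40.8 CPM across *Sirt7* KO livers, while by TPM, which also scales for transcript length, the gene was at 34.4, 28.3 and 27.3 and at 34.7, 49.9 and 68.0, higher in the *Sirt7* KO livers. Its full-length isoform was at 406 ± 24.2 (SD, n = 3) and 112 ± 30.7 (SD, n = 3) estimated reads in WT and *Sirt7* KO livers.

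The livers expressed the markers of hepatocytes (*Alb*, *Ttr* and others) at a summed level of 55872 to 61506 CPM in WT mice and 56121 to 68131 CPM in *Sirt7* KO mice. In bulk liver, fewer cells of a type and less RNA per cell cannot be told apart.

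The 5 genes lie on chromosome 15, and GENCODE M21 (GRCm38) places *Apol6* at chr15:77044729-77057106 (+), *Apol7a* at chr15:77388219-77399110 (-), *Apol9a* at chr15:77403789-77411135 (-), *Apol9b* at chr15:77729039-77736382 (+) and *Apol8* at chr15:77747798-77757003 (-). In all, 13 genes with an *Apol* symbol fall within 712 kb there. *Apol7a* and *Apol9a* are next to each other, and *Apol9b* lies towards the other end of the cluster, in the opposite orientation.

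The promoters of the cluster were searched for the ISRE core, which is GAAA, any 2 bases and GAAA again, or its reverse complement of TTTC, any 2 bases and TTTC, in the RefSeq promoter table of GRCm38.p6, which holds 250 bases before and 50 bases after each start. The core was found in 3.44% of 32851 promoters in that table, or 3.99% of 27025 genes. Of 12 genes with an *Apol* symbol and a promoter there, 8 held it: *Apol9a*, *Apol9b*, *Apol7c*, *Apol7e*, *Apol10a*, *Apol10b*, *Apol11a* and *Apol11b*. The windows around these matches are shown because they separate the pair of *Apol9* genes from *Apol7a* and *Apol8*, whose promoters in the table had no match. *Apol6* has no promoter in the table and could not be searched. Each is written 5′ to 3′ on the strand of its gene, and capitals mark the match or the run of overlapping matches.

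Apol9a, chr15:77411114-77411149 (-): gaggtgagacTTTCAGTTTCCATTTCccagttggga
Apol9b, chr15:77729025-77729060 (+): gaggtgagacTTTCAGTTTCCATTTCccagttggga
Apol7c, chr15:77533345-77533380 (-): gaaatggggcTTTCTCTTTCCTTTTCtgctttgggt
Apol7e, chr15:77698843-77698878 (+): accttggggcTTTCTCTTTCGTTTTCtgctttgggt
Apol10a, chr15:77476986-77477015 (+): gaaatttttcTTTCACTTTCatgcattggg
Apol10b, chr15:77596110-77596139 (-): gaaattttacTTTCATTTTCgtgcactgag
Apol11a, chr15:77508209-77508238 (+): gaatttttacTTTCACTTTCatgcactggg
Apol11b, chr15:77643317-77643346 (-): gaatttttacTTTCACTTTCatgcactggg

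*Apol9a* and *Apol9b* carry the same run of 16 bases with 2 overlapping matches, and *Apol7c* and *Apol7e* also hold 2 overlapping matches in 16 bases. *Apol10a*, *Apol10b*, *Apol11a* and *Apol11b* hold 1 match each. In both *Apol9* genes the GENCODE start falls on base 5 of the run, whereas the RefSeq start lies further downstream. The promoters of *Apol9a* and *Apol9b* were identical over all 278 bases that could be compared (0 mismatches). The stretch of *Apol9b* that ends with the run and the bases just before *Apol7a* are shown side by side.

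Apol9b, chr15:77728901-77729050 (+): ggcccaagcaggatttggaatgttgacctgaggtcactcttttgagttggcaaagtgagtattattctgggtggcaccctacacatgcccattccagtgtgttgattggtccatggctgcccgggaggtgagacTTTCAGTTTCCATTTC
Apol7a, chr15:77399111-77399210 (-): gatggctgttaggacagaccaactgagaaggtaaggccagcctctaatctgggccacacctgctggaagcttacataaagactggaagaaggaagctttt

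A match is a description of letters and not a site shown to be bound. The gamma-activated sequence TTCNNNGAA, an element of interferon gamma genes that is present in 8.3% of promoters in the table, and TATAAA on either strand, present in 13.6%, had no match in *Apol9a*, *Apol9b*, *Apol7a* or *Apol8*.

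*Apol9a* and *Apol9b*, whose products are interferon-induced phospholipid-binding proteins, had the higher values in *Sirt7* KO livers. *Apol9b* was at 52.6, 54.8 and 53.5 CPM in livers of WT mice, compared with 146, 138 and 142 CPM in livers of *Sirt7* KO mice. The means were 53.6 ± 1.11 CPM (SD, n = 3) and 142 ± 3.83 CPM (SD, n = 3), a fold of 2.65 and a log2 fold change of 1.40 with an SE of 0.13. The 2 groups did not overlap, as was the case for 8.74% of all tested genes in this direction and 8.09% in the other. The mice of each genotype lay close together, with a coefficient of variation of 2.08% in WT and 2.70% in *Sirt7* KO mice. Reads that fit both *Apol9* genes were divided between them, so the spread of 1 gene depends on that split. For the sum of both genes the coefficient of variation was 8.21% in WT and 9.94% in *Sirt7* KO mice.

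*Apol9a* was at 45.5, 44.3 and 59.8 CPM across WT livers, against 144, 119.95 and 95.6 CPM across *Sirt7* KO livers. Its means were 49.8 ± 8.62 CPM (SD, n = 3) and 119.8 ± 24.1 CPM (SD, n = 3), with a log2 fold change of 1.26 and an SE of 0.19. The groups did not overlap here either, but the mice were more spread than for *Apol9b*, with *Sirt7* KO replicate 1 highest.

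The sum of both genes was 98.1, 99.1 and 113 CPM in livers of WT mice, compared with 289, 258 and 238 CPM in livers of *Sirt7* KO mice, from 1092 to 1531 and 2433 to 3160 estimated reads. On the log2 scale it was 1.34 higher (SE 0.15) in *Sirt7* KO mice, a fold of 2.53. With the edgeR quasi-likelihood test at an adjusted p under 0.05 and a fold over 1.5, 1 of the 5 genes (*Apol9b*) was called higher, beside 0.00798% of all tested genes. That share is *Apol9b* itself, the only gene called, and so no separate background. That call comes from the contrast by which the genes were picked, so it is a count and not evidence for their difference. It was lost when any one of WT replicates 1, 2 and 3 and *Sirt7* KO replicates 2 and 3 was left out, while the log2 fold change of *Apol9b* without each mouse in turn was 1.38 to 1.42.

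**Figure D1:**
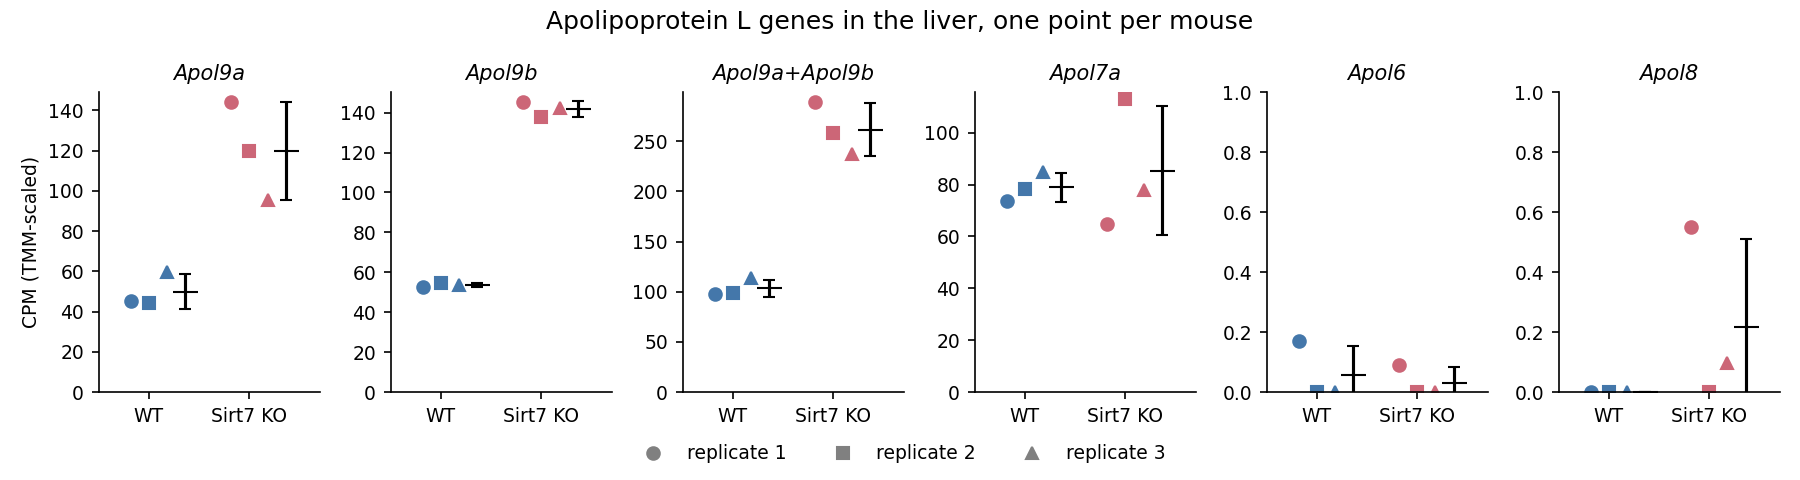
Each point is 1 mouse (circle, square and triangle for replicates 1, 2 and 3) and the y axis is CPM with TMM-scaled library sizes, on its own range in each panel, with the mean ± SD in black for 3 WT and 3 Sirt7 KO livers. Apol9a, Apol9b and their sum are separated by genotype, Apol7a overlaps, and Apol6 and Apol8 stay under 1 CPM.

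*Apol7a*, which lies beside *Apol9a* and has no ISRE match in the table, was at 73.6, 78.1 and 85.0 CPM across WT livers, against 64.8, 113 and 78.0 CPM across *Sirt7* KO livers. The *Sirt7* KO mice held both the lowest and the highest value, so the groups overlapped. The means were 78.9 ± 5.74 CPM (SD, n = 3) and 85.3 ± 24.9 CPM (SD, n = 3), with a log2 fold change of 0.11 and an SE of 0.21, which turned to -0.14 without *Sirt7* KO replicate 2.

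*Apol6*, whose human counterpart has been linked to cell death, had 2 reads in WT replicate 1, 1 read in *Sirt7* KO replicate 1 and 0 in the other mice. *Apol8* had 6 reads in *Sirt7* KO replicate 1, 1 in *Sirt7* KO replicate 3 and 0 elsewhere. A count of 0 still allows up to 3 reads, or 0.224 to 0.301 CPM depending on the mouse, so a difference between genotypes was not detectable at this depth for either gene. This limit covers counting error only, since amplified reads without molecular identifiers are not independent molecules.

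Compared per length, as TPM (transcripts scaled for their length to a fixed total per mouse), *Apol9b* and *Apol7a* were at about the same level in WT livers. *Apol9b* was at 35.7 ± 1.96 TPM (SD, n = 3), *Apol7a* at 35.5 ± 1.57 TPM (SD, n = 3) and *Apol9a* at 25.6 ± 3.98 TPM (SD, n = 3). The first 2 in this order did not differ beyond their spread, and *Apol9a* was below both, its level over that of *Apol7a* being 0.60 to 0.887 by mouse. In *Sirt7* KO livers the order was *Apol9b* at 93.3 ± 5.61 TPM (SD, n = 3), *Apol9a* at 62.4 ± 13.3 TPM (SD, n = 3) and *Apol7a* at 37.6 ± 11.0 TPM (SD, n = 3). The highest *Apol7a* value among *Sirt7* KO mice, 50.1 TPM, lay above the lowest *Apol9a* value, 47.8 TPM. Over all 6 livers *Apol9b* ranked 1347, *Apol9a* 1806 and *Apol7a* 2045 by mean TPM among 12524 tested genes.

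Of the estimated reads of all genes with an *Apol* symbol, the *Apol9* pair took 55.0% to 56.9% in WT mice and 69.1% to 80.7% in *Sirt7* KO mice. *Apol7a* took 41.9% to 43.4% and 18.1% to 30.3%, and the rest together never more than 2.21%. Nearly all *Apol* RNA in these livers was thus assigned to 3 genes.

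No other gene with an *Apol* symbol passed the filter on low counts. *Apol7b* had 3 to 12 estimated reads per mouse, *Apol7e* up to 10, *Apol10b* up to 14, and *Apol11b*, *Apol7c* and *Apol7d* at most 7. *Apol10a* and *Apol11a* had 1 read each over all mice and *Apol10c-ps* had 0, and both *Apol10a* and *Apol11a* carry an ISRE core before their start. *Apold1*, a gene of blood vessel endothelium on chromosome 6, had 0 to 16 reads. *Apol7b* and *Apol7e* share 59.8% and 60.4% of their 75-base windows with each other, so their split is uncertain. *Apol7d* lies on chromosome 1 in this annotation, as an antisense gene that shares 8.19% of its windows with *Fn1*, and without strand information reads in those windows fit both genes.

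How far the *Apol9* pair can be separated depends on the sequence of their transcripts. Reads were 75 bases long, and 43.3% of the 75-base windows of *Apol9b* transcripts also occur in *Apol9a*. In the spliced transcript Apol9a-201, which has 3 exons and 1530 bases, 697 of 1456 windows are shared with another gene. Only 31.7% of the windows towards its 5′ end belong to *Apol9a* alone, against 72.5% towards its 3′ end (the transcript cut at its midpoint), and the values for Apol9b-204 were 31.6% and 72.5%. A read from the first part of either transcript therefore usually fits both genes.

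**Figure D2:**
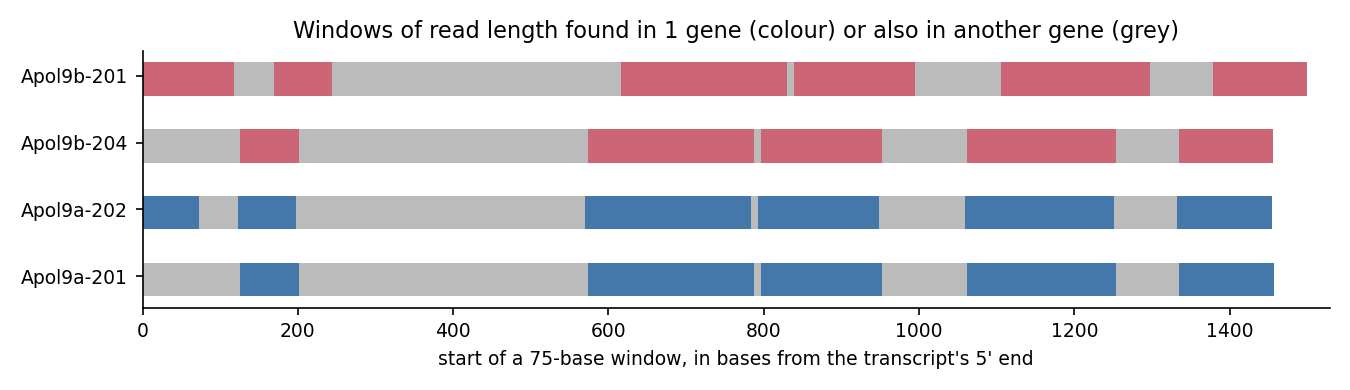
Each bar is a spliced transcript of Apol9a (blue) or Apol9b (red), the x axis gives the start of a 75-base window in bases from the 5′ end, and grey marks windows that also occur in another gene. Grey dominates the 5′ side of all 4 transcripts, where 31.6% to 43.5% of windows are found in 1 gene.

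The split of the reads between the copies varied from mouse to mouse within each genotype. *Apol9b* took 53.6%, 55.3% and 47.2% of the summed reads in livers of WT mice, compared with 50.3%, 53.5% and 59.8% in livers of *Sirt7* KO mice. The 95% Wilson interval was 44.7% to 49.7% for WT replicate 3 and 57.9% to 61.7% for *Sirt7* KO replicate 3, the lowest and highest mice, and it takes the estimated reads as counts. The mean share was 52.0% ± 4.26 (SD, n = 3) for WT and 54.5% ± 4.85 (SD, n = 3) for *Sirt7* KO livers, a difference of 2.47 percentage points, which is less than the spread within a genotype.

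Between the annotated isoforms of *Apol9a* the assignment moved much more. Apol9a-201 received 362, 103 and 363 estimated reads across WT livers, against 1027, 467 and 0 across *Sirt7* KO livers. Apol9a-202, which differs from it in the first exon, received 0, 240 and 148 reads in livers of WT mice, compared with 167, 316 and 637 in livers of *Sirt7* KO mice. The reads of Apol9a-201 thus ran from none of the spliced reads of the gene, in *Sirt7* KO replicate 3, to all of them, in WT replicate 1, and neither isoform was separated by genotype. Apol9b-204, the main isoform of *Apol9b*, had 397, 502 and 376 reads across WT livers, against 808, 878 and 1119 across *Sirt7* KO livers.

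The annotation also gives *Apol9a* a retained-intron transcript, Apol9a-203, of 1 exon and 4246 bases at chr15:77406782-77411027, of which 4244 bases lie in intron 1 of Apol9a-201. None of its 75-base windows occurs in a transcript of another gene. The matching intron of *Apol9b* was not compared, since only transcript sequences were used, so reads from it could be assigned here. Apol9a-203 received 175, 145 and 294 estimated reads in livers of WT mice, compared with 375, 340 and 354 in livers of *Sirt7* KO mice, or 16.6 ± 4.58 CPM (SD, n = 3) and 34.8 ± 1.05 CPM (SD, n = 3). The groups did not overlap, the ratio of the means was 2.10, and the intron took 23.9% to 36.4% of the reads of *Apol9a* over the 6 mice. These reads, which are not shared with the spliced transcripts of *Apol9b*, were thus higher in *Sirt7* KO livers too.

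**Figure D3:**
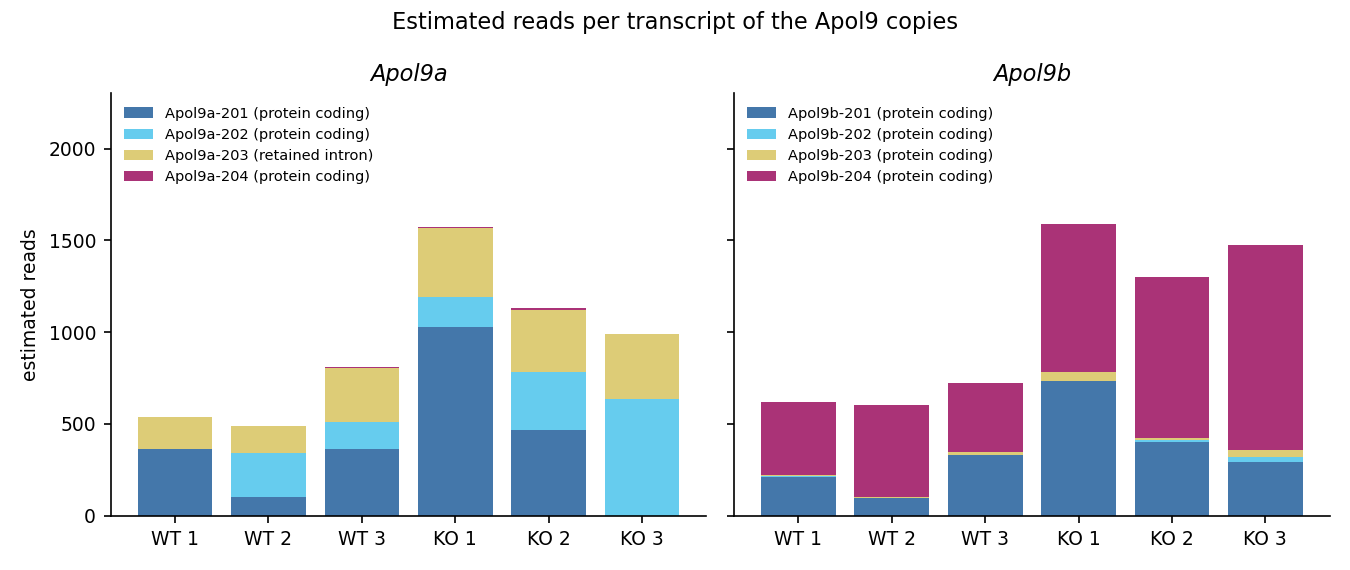
Stacked bars give the estimated reads of each annotated transcript of Apol9a and Apol9b in the 6 mice, on a shared y axis and not scaled for depth. The height differs by genotype in both genes, the retained intron of Apol9a (Apol9a-203) runs from 145 to 375 reads, and Apol9a-201 and Apol9a-202 trade places between mice.

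The *Apol9* genes are known targets of interferons, so the other targets were set beside them. The interferon gene lists were chosen with earlier results of these data known. Their counts below are therefore a description and not evidence for an interferon pattern. Of 37 listed type I interferon genes, 32 were tested and 0 passed the edgeR call, with 0.152 as the smallest adjusted p (edgeR), while 16 were higher and 0 lower at an unadjusted p under 0.05, against 6.54% and 4.78% of all tested genes. The log2 fold change was above 0 for 31 of the 32, with a median of 0.84 against -0.0061 over all tested genes. When transcript length was taken into account, 9 of the 32 with edgeR and 10 with DESeq2 were higher at an unadjusted p under 0.05, with medians of 0.69 and 0.70. With DESeq2, 5 were called higher beside 1.3% of tested genes, namely *Ifit1*, *Ifit3*, *Oasl1*, *Xaf1* and *Ifih1*, and 5 again with transcript length, beside 1.38%, with *Dhx58* in place of *Ifih1*.

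*Ifit3*, which binds viral RNA together with *Ifit1*, was at 1.27, 1.36 and 5.55 CPM across WT livers, against 19.1, 7.95 and 5.88 CPM across *Sirt7* KO livers, with a log2 fold change of 1.99 (SE 0.63, edgeR adjusted p = 0.281). *Ifit1* was at 3.90, 2.36 and 2.44 CPM in livers of WT mice, compared with 18.9, 4.66 and 8.57 CPM in livers of *Sirt7* KO mice, with a log2 fold change of 1.89 (SE 0.49). For *Isg15*, a ubiquitin-like modifier, the log2 fold change was 1.78 (SE 0.54). In all 3 genes the groups did not overlap and *Sirt7* KO replicate 1 was far above the other mice. At the low end of the list were *Stat2*, a subunit of the complex that binds the ISRE, at 0.28 (SE 0.22) and *Oas2*, an RNA sensor, at -0.11 (SE 0.85), both with overlapping groups.

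Of 21 listed interferon gamma genes, 19 were tested and 0 were called by edgeR, with 7 higher and 0 lower at an unadjusted p under 0.05, a median log2 fold change of 0.45 and a smallest adjusted p (edgeR) of 0.0553. That gene was *Ifi47*, an immunity-related GTPase, at 9.48, 8.26 and 8.21 CPM across WT livers, against 28.9, 18.3 and 23.2 CPM across *Sirt7* KO livers. *Psmb9*, a subunit of the immunoproteasome, had a log2 fold change of 1.38 and *Gbp6*, a guanylate-binding protein, one of 1.34, whereas *Gbp2* stood at -0.32 and *Ciita*, the activator of MHC class II genes, at -0.69. DESeq2 called 3 of the list, *Ifi47*, *Psmb8* and *Psmb9*.

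Of 15 listed receptor and signalling genes of the pathway, 14 were tested, 0 were called by edgeR or DESeq2, 2 were higher at an unadjusted p under 0.05, *Tyk2* among them, and the median log2 fold change was 0.07. *Irf9* was at 0.59 (SE 0.33) and the kinase gene *Tyk2* at 0.50 (SE 0.19), with *Ifngr1*, an interferon gamma receptor chain, at -0.16 and *Il10rb*, a receptor chain shared by interferon lambda, at -0.42. *Stat2* and *Irf9*, which are themselves induced by interferon, are in both this list and the type I list.

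The type I genes were next compared with the *Apol9* genes mouse by mouse. The mean log2(CPM + 0.5) of the 32 type I genes, relative to the mean of 6 livers, was -0.49, -0.50 and -0.17 in livers of WT mice, compared with 1.07, 0.11 and -0.02 in livers of *Sirt7* KO mice, and *Sirt7* KO replicate 1 was the highest liver for 29 of the 32. *Apol9b* on the same scale was at -0.73, -0.67 and -0.70 across WT livers, against 0.73, 0.66 and 0.70 across *Sirt7* KO livers. *Apol9a* was at -0.74, -0.78 and -0.35 in the WT group and at 0.91, 0.65 and 0.32 in the *Sirt7* KO group. The sum of both genes was at -0.74, -0.73 and -0.53 in the WT group and at 0.82, 0.65 and 0.53 in the *Sirt7* KO group. The 3 *Sirt7* KO means of the type I list thus all lay above the 3 WT means, with 1 liver far above the others. *Apol9b* had 3 *Sirt7* KO livers at nearly the same height. Of the 32 type I genes, 16 were higher without overlap and 0 lower, beside 8.74% and 8.09% of all tested genes. *Apol9a* and the sum shared with the type I list the order of the *Sirt7* KO mice and the highest WT mouse. The values of each copy depend on how reads that fit both were divided, and those of the sum do not. The sum of the *Apol9* genes and the mean of the type I list had an r of 0.818 over the 6 livers, which share the genotype groups and the libraries. Without *Sirt7* KO replicate 1 the median of the type I list was 0.42, with 8 of 32 higher at an unadjusted p under 0.05 against 8.97% of all tested genes, and the median of the interferon gamma list was -0.02. In that fit 27 of the 32 type I genes were above 0, beside 6214 of 12921 tested genes. The log2 fold change without that mouse was 1.39 for *Apol9b*, 1.11 for *Apol9a* and 1.26 for their sum.

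**Figure D4:**
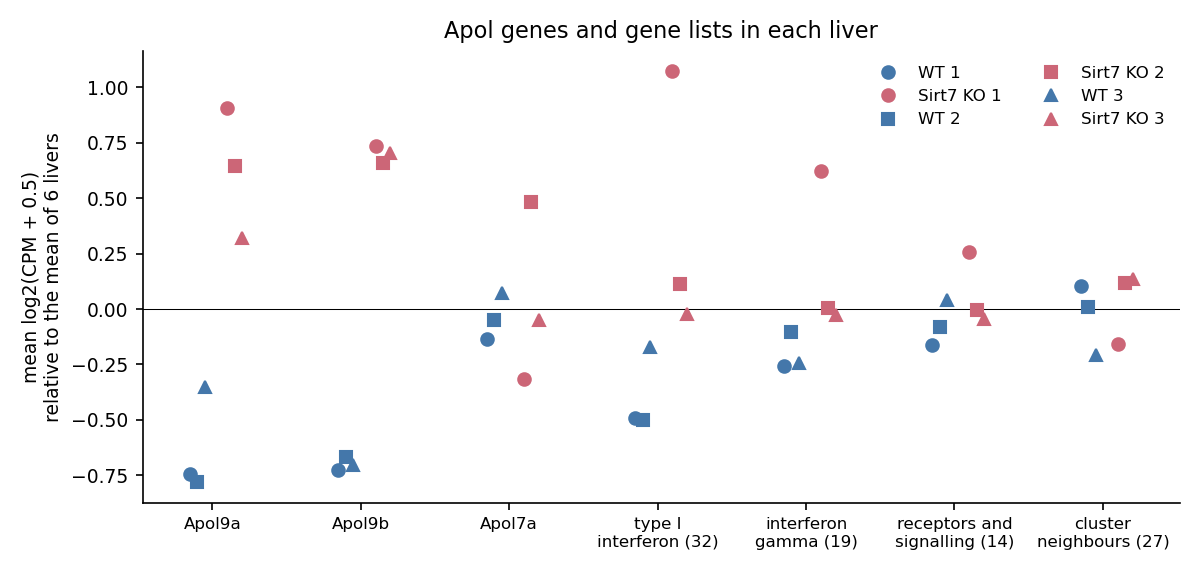
Points give, for each of 6 livers, log2(CPM + 0.5) relative to the mean of the 6 for Apol9a, Apol9b and Apol7a, and the mean over the tested genes of 4 lists (number of genes in brackets). WT mice are blue and Sirt7 KO mice red, and Sirt7 KO replicate 1 stands at 1.07 for the type I list, apart from the other livers.

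The ISRE core was present in the promoters of 14 of 27 type I interferon genes and 10 of 16 interferon gamma genes in the RefSeq table, in 1 of 12 signalling genes and in 1 of 15 neighbours of the cluster. All genes in the table held it in 3.99% of cases, and 2 of the genes with a match, *Apol9a* and *Apol9b*, were among the 3 *Apol* genes with measurable RNA. These 2 promoters were identical where compared and so are not independent cases, and the other *Apol* genes with a match were under the filter.

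The summed levels of cell type markers overlapped between the genotypes for 7 of 8 lists. Among 9 Kupffer cell markers the summed level was 72.3 to 190 CPM in WT and 66.7 to 182 CPM in *Sirt7* KO mice, among 9 endothelial markers 104 to 132 and 107 to 149 CPM, and among 9 lymphocyte markers 30.8 to 53.1 and 24.6 to 50.9 CPM. The sums of hepatocyte, stellate cell, cholangiocyte and neutrophil markers overlapped as well, and *Ly6g*, which defines neutrophils, was at 0 in every mouse. The 5 markers of plasmacytoid dendritic cells, which make type I interferon, summed to 99.5 to 116 CPM in WT and 126 to 140 CPM in *Sirt7* KO mice, without overlap. That sum is nearly all *Bst2*, which is in the type I list too, and *Tcf4*, while *Siglech*, which defines the cells, was at 0 in WT and at most 0.183 CPM in *Sirt7* KO mice. Their part in the result was not tested. No marker of any of the 8 lists was past an unadjusted p of 0.05.

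The neighbours of the cluster on chromosome 15 were examined for a change of the whole region. Within 500 kb of the *Apol* genes, 62 other genes are annotated and 27 were tested. Of these, 0 were called by edgeR or DESeq2, and the median log2 fold change was 0.04. At an unadjusted p (edgeR) under 0.05, 1 was higher and 0 lower, against 6.54% and 4.78% of all tested genes. That gene was *Myh9*, a non-muscle myosin heavy chain beside *Apol8*, at 20.5, 19.0 and 19.0 CPM in livers of WT mice, compared with 24.4, 25.5 and 27.3 CPM in livers of *Sirt7* KO mice, with a log2 fold change of 0.40 (SE 0.14, edgeR adjusted p = 0.334). *Slc39a4*, an intestinal zinc transporter, had the highest log2 fold change of the neighbours at 0.99, with an SE of 0.47 and overlapping groups, and *Recql4*, a DNA helicase, was at 0.39. The lowest were *Zfp251* at -0.43 and *Gm3787* at -0.46. With scaling to total counts, which shifts the median of all genes by -0.11, the median of the neighbours was -0.09 and that of the signalling genes -0.04. With length offsets in edgeR the median of the neighbours was 0.145. Without *Sirt7* KO replicate 1, 5 of the 27 neighbours were higher and 0 lower at an unadjusted p (edgeR) under 0.05, against 8.97% of all tested genes higher.

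**Figure D5:**
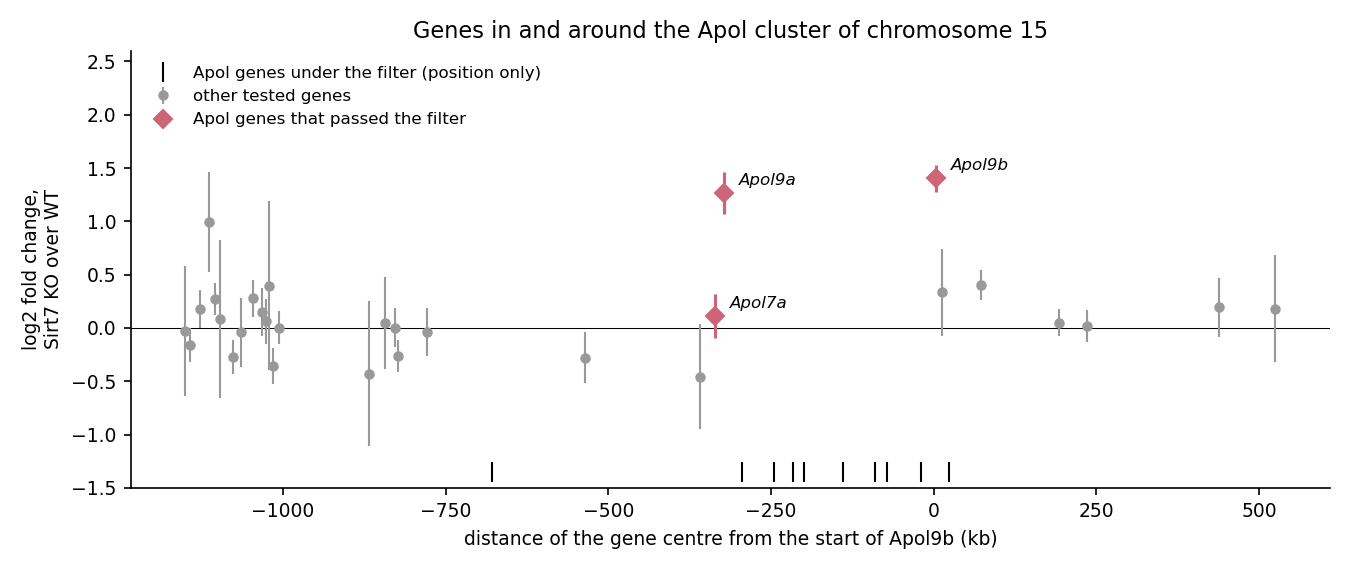
The x axis is the distance of a gene's centre from the start of Apol9b in kb and the y axis the log2 fold change of Sirt7 KO over WT livers, with bars of 1 SE from edgeR, and ticks mark Apol genes under the filter. Apol9a at 1.26 and Apol9b at 1.40 stand above the 27 neighbours, whose values run from -0.46 to 0.99, and Apol7a beside Apol9a is at 0.11.

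Over the 6 livers, *Apol9a* and *Apol9b* had a Pearson r of 0.945 in log2(CPM + 0.5). After the mean of each genotype was subtracted, r was 0.157. *Apol9b* and *Apol7a* had an r of 0.125. The 6 points share the genotype difference and, for the *Apol9* pair, reads that fit both genes.

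The genes closest to *Apol9b* by this measure were *Tceal1* (r = 0.994), *Mup-ps8*, a pseudogene of the major urinary proteins (r = 0.987), *Caprin1*, an RNA-binding protein of stress granules (r = 0.986), *Smim14* (r = 0.984) and *Srrd* (r = 0.983). After the genotype means were subtracted, r in the same order was 0.62, 0.48, -0.84, 0.96 and -0.01. In WT livers *Tceal1* was at 0.169 to 0.222 CPM and *Mup-ps8* at 0 to 0.181 CPM, under the limit given above for a count of 0. In *Sirt7* KO livers they were at 1.16 to 1.47 and 1.47 to 1.83 CPM. Both passed the filter on low counts through the *Sirt7* KO livers only. Their high r with a gene picked for being higher there was therefore built in and is no support. Those closest to *Apol9a* were *Ireb2*, an iron-regulatory protein (r = 0.993), *AW011738* (r = 0.988), *Slc41a2*, a magnesium transporter (r = 0.985), *Plxna2*, a semaphorin receptor (r = 0.985), and *Fabp5*, a fatty acid carrier (r = 0.984). With the genotype means subtracted, r for these genes was 0.94, 0.95, 0.86, 0.97 and 0.85 in the same order. *AW011738*, at 0.423 to 0.888 CPM in WT and 1.35 to 2.11 CPM in *Sirt7* KO livers, also passed the filter through the latter only. For the sum they included *Tceal1* (r = 0.998, with the same limit as above), *Pnrc2*, *Ireb2* and *Slc41a2*. None of these genes is in the interferon lists. Those lists hold only 32, 19 and 14 of the 12524 tested genes, so their absence among so few named genes is not a result. Other genes had similar values: r was above 0.95 for 62 of 12523 genes with *Apol9b* and below -0.95 for 45, and only 1 of the 5 named for *Apol9b* was also in the first 5 in log2(TPM + 0.5).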

How the data were processed

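Genotype, age, sex and fasting were taken from the sample labels (3 WT and 3 *Sirt7* KO mice, labelled as biological replicates). Per the labels and the methods, the authors made SMART-seq HT and Nextera XT libraries, trimmed the reads with Trim Galore 0.6.5 and quantified them on the GRCm38 transcriptome with Salmon 1.2.1; the annotation release is not given in the sources used here. The authors deposited, per mouse and transcript, the estimated count of reads (not normalized, not whole) and TPM, which Salmon scales to effective length and to a fixed total.

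Estimated counts were summed to genes of GENCODE M21 (139172 of 140992 transcripts matched with the same version, 619 with another, and 1201 without a gene, holding 0.303% to 0.492% of the reads, were left out) and rounded. Genes were filtered with filterByExpr (minimum count 10) and fitted with edgeR 4.0.16 (TMM, quasi-likelihood test, Benjamini-Hochberg over 12524 genes); calls needed an adjusted p under 0.05 and a fold over 1.5. DESeq2 1.42.0 was an alternative. The scripts were tested on simulated data.

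CPM used TMM library sizes. TPM served for levels between genes. The members and the gene lists were chosen with earlier results of these data known. Text names the members, every other *Apol* gene, and per list the 3 highest and 2 lowest log2 fold changes and the called genes, and for likeness the 5 highest r; the DESeq2 calls are named in addition, chosen after their values were seen. Some genes that this rule names are not reported here. Promoters came from RefSeq (GRCm38.p6).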

Additional observations from a re-analysis of the deposited data

How the results depend on the processing

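*Apol9a*, *Apol9b* and their sum kept a positive log2 fold change under every alternative run: other normalizations and filters, transcript length offsets, DESeq2, a replicate block, each mouse left out, and other choices of transcripts. *Apol9b* (1.40) was 1.30 with total counts, a setting that shifts the median of all genes by -0.11. It was 1.44 with length offsets in edgeR and 1.45 with DESeq2 and length offsets, and the cause of the shift with offsets was not tested. With each mouse left out, the ranges were 1.11 to 1.42 for *Apol9a*, 1.38 to 1.42 for *Apol9b*, 1.26 to 1.41 for the sum and -0.14 to 0.28 for *Apol7a*, and the share of *Apol9b* in the sum differed by -0.18 to 4.58 percentage points.

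Counts of called genes depended on the processing. Called higher were 1 gene by edgeR, 2 with total counts, 2 with transcripts of the same version only, 417 without a filter, 186 with DESeq2, 176 with DESeq2 and length offsets, and 0 to 165 with each mouse left out. Called lower were 0, then 216 without a filter, 70 and 69 with the 2 DESeq2 fits, 1 with length offsets in edgeR, and 0 to 87 with each mouse left out; the counts of 165 and 87 arose without *Sirt7* KO replicate 1. Of type I interferon genes, 13 were called without a filter and 5 with each DESeq2 fit; of interferon gamma genes, 7 without a filter, 2 and 3 with DESeq2 with and without offsets, and 0 to 1 with each mouse left out, their median running from -0.024 (without *Sirt7* KO replicate 1) to 0.69. Of signalling genes and neighbours, 1 each was called without a filter (*Slc39a4* among the neighbours), and the median of signalling genes was 0.037 to 0.23 with each mouse left out. Of the 5 genes most like *Apol9b*, 1 was kept on the log2(TPM + 0.5) scale.

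Mice with the same replicate number did not deviate together over all tested genes (r = 0.065, 0.080 and -0.044). The labels do not say whether the numbers pair the mice, and with 3 mice per genotype these values cannot decide it. With the replicate block 31 genes were called higher and 10 lower, among them 1 interferon gamma gene (*Ifi47*, edgeR adjusted p = 0.0455). In that fit *Apol9b* was at 1.40, *Apol9a* at 1.26, the sum at 1.34 and *Apol7a* at 0.08. With 3 mice per genotype and a biological coefficient of variation of 26.4%, small differences of single genes are out of reach, and the genes under the filter have too few reads for any comparison.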

Other observations

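*Apol7a*, the family member without a genotype difference beyond its spread, varied among the *Sirt7* KO mice together with a small set of genes, which were named after their values were seen. Over the 6 livers 10 of 12523 genes had an r above 0.95 and 21 an r below -0.95 with *Apol7a* in log2(CPM + 0.5). The closest were *Inpp5b*, an inositol phosphatase (r = 0.989, and 0.992 after the genotype means were subtracted), *Arv1*, a sterol transport factor of the endoplasmic reticulum (0.988 and 0.997), *Sh3yl1* (0.987 and 0.997), *Fbxl12* (0.974 and 0.982) and *Gstt3*, a glutathione transferase (0.969 and 0.968). *Gstt3* was at 138, 159.9 and 155 CPM in WT livers and at 90.7, 307 and 163 CPM in *Sirt7* KO livers, so that, as for *Apol7a*, *Sirt7* KO replicate 1 was lowest and replicate 2 highest. None of the 5 was among the 5 closest in log2(TPM + 0.5), and the 6 points share library depth and preparation.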
